A study of Rattus norvegicus with 28 samples.

Results

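The 10 genes described here mark astrocytes that have turned reactive. They are Gfap, Vim, Nes, Serpina3n, Lcn2, Cd44, Osmr, Steap4, Cp and Slpi, and they were followed on 14 1-colour Agilent arrays of hippocampal RNA from rats with traumatic brain injury (TBI). A probe belonged to a member when its accession paired with that rat gene symbol in RefSeq. This gave 16 probes for the 10 genes, of 30367 probes and 15637 named genes on the array. All animals were adult male Sprague-Dawley rats, each array held the whole hippocampus of a different animal, and tissue was taken 24 h after surgery. The Sham group (n = 2) had the surgery without the injury. The other groups (n = 3 each) had a severe parasagittal fluid percussion injury, in which a pressure pulse of fluid strikes the exposed dura. TBI received no antidepressant, and TBI+Imipramine, TBI+Prozac and TBI+Zoloft received the drug 1 h after injury at the same dose. Imipramine is a tricyclic antidepressant, and Prozac (fluoxetine) and Zoloft (sertraline) are selective serotonin reuptake inhibitors. The comparisons ask how far the reactive astrocyte transcripts changed with the injury and whether any drug changed them further.

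After injury, astrocytes enlarge, build more intermediate filament and secrete acute-phase and iron-handling proteins. Cytokines of the interleukin-6 family, oncostatin M among them, signal through receptors that share the gp130 chain and activate the transcription factor STAT3, and STAT3 is known for its part in astrocyte reactivity and scar formation. Several of the same transcripts are also made by other cells, among them neutrophils (Lcn2, Slpi), macrophages (Cd44, Vim), endothelium (Vim) and choroid plexus (Cp), and whole tissue does not separate these sources.

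RefSeq (build GRCr8) held the promoter of 9 of the 10 members, and the 250 bases before the transcription start were searched on both strands for 4 short motifs. The STAT motif TTCNNNGAA stood in 2 of these 9 promoters, those of Serpina3n and Steap4, against 7.67% of all 33469 rat promoters. These stretches are shown because STAT3 acts downstream of the cytokine receptors counted below and these were the member promoters with its letters. Capitals mark the matched letters, and the last printed base lies just before the start.

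Serpina3n (chr6:129088142-129088391, plus strand): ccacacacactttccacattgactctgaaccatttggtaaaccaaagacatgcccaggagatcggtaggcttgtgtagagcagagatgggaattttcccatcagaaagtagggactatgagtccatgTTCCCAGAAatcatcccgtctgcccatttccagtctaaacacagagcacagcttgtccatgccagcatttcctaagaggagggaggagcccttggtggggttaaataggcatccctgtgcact

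Steap4 (chr4:27054770-27055019, minus strand): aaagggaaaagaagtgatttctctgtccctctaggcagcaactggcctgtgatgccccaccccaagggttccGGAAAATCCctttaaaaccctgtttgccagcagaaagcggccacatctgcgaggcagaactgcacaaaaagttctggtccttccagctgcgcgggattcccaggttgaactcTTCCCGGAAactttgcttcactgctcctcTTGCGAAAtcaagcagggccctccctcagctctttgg

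The Serpina3n match TTCCCAGAA began 123 bases before the start. Steap4 held TTCCCGGAA at 66 bases before the start, the NF-kB-like letters GGNNTTTCC (read on the other strand as GGAAAATCC) at 178 bases, and the C/EBP-like letters TTGCNNAA at 37 bases, with no overlap between the 3 matches. GGNNTTTCC was also found in the Gfap promoter (5.19% of all promoters hold it) and TTGCNNAA in those of Lcn2 and Cp (9.22%). The AP-1 letters TGANTCA stood in the Osmr promoter, against 6.34% of all promoters. A match describes the letters and does not show that a factor binds there.

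Levels are given as log2 of a probe's signal relative to its array's 75th percentile, taken over the probes that rose above background there, so that 0 is that percentile and 1 unit is a doubling. A probe was tested if some group had it above background on all of its arrays, which held for 17322 probes. Differences between groups come from a single limma fit over the 14 arrays, and adjusted p-values are Benjamini-Hochberg values over these 17322 probes, called at 0.05. By this rule 11 of the 16 probes and 9 of the 10 members were tested. Osmr was not, as it was above background on 2 of 14 arrays. Where a gene had several probes, the one with the highest mean level stands for it. Of 7 transcripts of hippocampal principal neurons 6 passed the filter, and Prox1 was not above background on any of the 14 arrays. This does not by itself show the hippocampal origin of the RNA, which rests on the labels, as 17322 of all 30367 probes passed. The Sham arrays lay alone on 1 of the 3 slides and were scanned on another occasion than the rest, so that injury and slide cannot be told apart in any comparison with Sham.

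**Figure D1:**
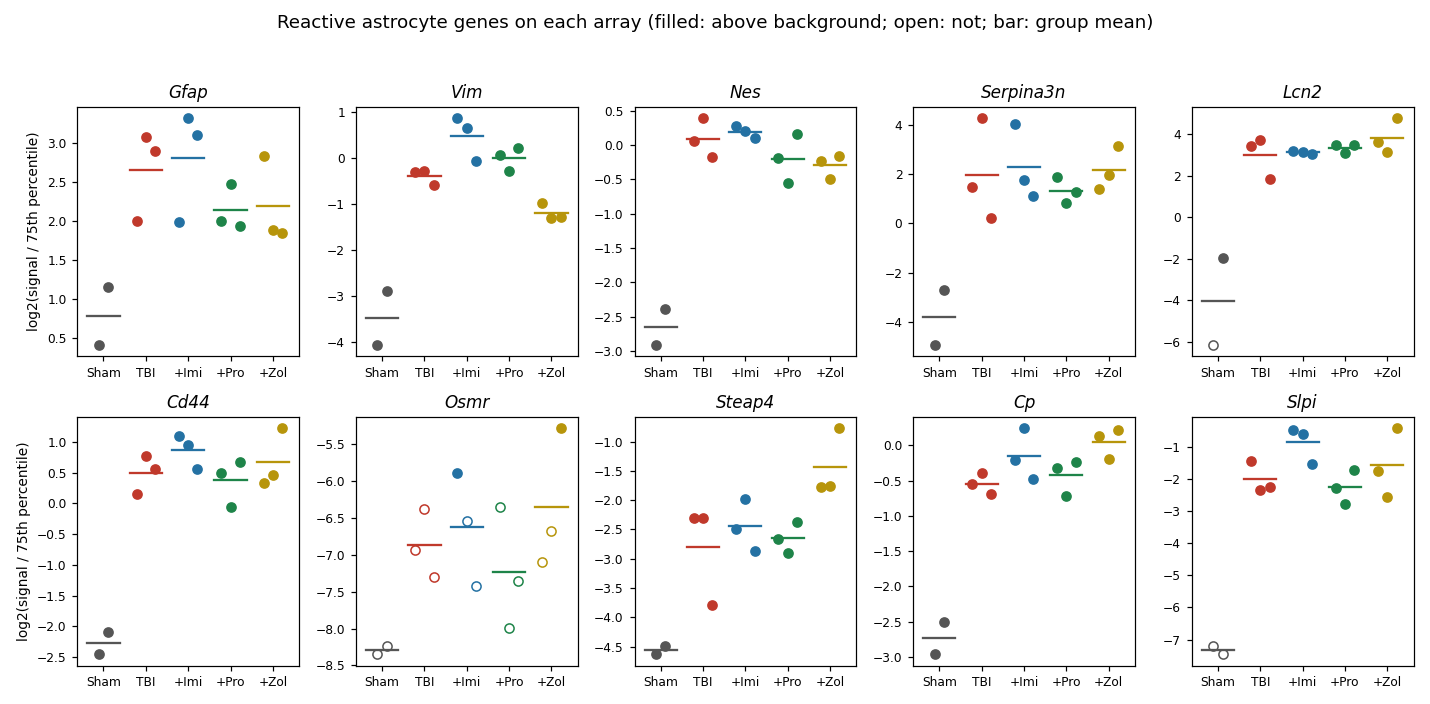
Level of each member on each array, as log2 of the signal over the array's 75th percentile (vertical axis, separate scale per gene), by group (horizontal axis; +Imi, +Pro and +Zol are TBI+Imipramine, TBI+Prozac and TBI+Zoloft). Points are arrays, open where the probe was not above background, and lines are group means. For each of the 9 tested members every injured array lies above both Sham arrays, and Vim is lowest among the injured groups in TBI+Zoloft.

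The 9 tested members were all higher in injured hippocampus. In TBI against Sham 9 of 9 were called higher and 0 lower, by log2 differences from 1.76 to 7.06 with a median of 2.77, while the median over all tested probes was 0.00150. Among all tested probes 8.3% were called higher and 8.32% lower. For each of the 9, every TBI array lay above both Sham arrays, as 20.9% of all tested probes did. Every one of the 12 injured arrays, drug-treated or not, lay above both Sham arrays for the 9 members too, against 12.1% of probes. Slpi passed the filter only through its injured arrays and Lcn2 was above background on 1 of 2 Sham arrays, so their place among the calls is partly set by the filter. Without Sham replicate 1 the count fell to 6, with Gfap, Serpina3n and Steap4 no longer called.

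Of the intermediate filament genes, 3 of 3 were called higher in TBI. Gfap encodes glial fibrillary acidic protein, the filament that defines astrocytes. Its level was 0.41 and 1.15 in Sham, 2.00, 3.07 and 2.89 in TBI, 1.99, 3.31 and 3.10 in TBI+Imipramine, 2.00, 2.48 and 1.93 in TBI+Prozac, and 2.84, 1.88 and 1.84 in TBI+Zoloft. No injured array reached down to the Sham level, and within each injured group the arrays differed by up to 1.33 log2 units. The difference between TBI and Sham was 1.88 on the log2 scale (SE 0.45, 3.67-fold, limma adjusted p = 0.0142). Without TBI replicate 2 this was 1.67 (adjusted p = 0.0503), and without Sham replicate 1 it was 1.51 (adjusted p = 0.126).

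Vim encodes vimentin, a filament of immature and reactive astrocytes and of mesenchymal cells. Its level was -4.06 and -2.89 in Sham, -0.30, -0.28 and -0.59 in TBI, 0.86, 0.66 and -0.06 in TBI+Imipramine, 0.07, -0.27 and 0.22 in TBI+Prozac, and -0.98, -1.31 and -1.27 in TBI+Zoloft. The TBI arrays lay close together, the imipramine and Prozac arrays lay above them, and the Zoloft arrays lay below them. TBI exceeded Sham by 3.09 on the log2 scale (SE 0.33, 8.49-fold, limma adjusted p = 0.000185).

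Nes encodes nestin, a filament of neural progenitors that reactive astrocytes take up again. Its level was -2.91 and -2.39 in Sham, 0.06, 0.39 and -0.18 in TBI, 0.27, 0.20 and 0.11 in TBI+Imipramine, -0.19, -0.56 and 0.15 in TBI+Prozac, and -0.23, -0.50 and -0.16 in TBI+Zoloft. The 12 injured arrays spanned 0.95 log2 units and stood well above Sham. TBI exceeded Sham by 2.74 (SE 0.23, 6.69-fold, limma adjusted p = 4.19e-05), and a separate Nes probe gave a log2 difference of 3.14 (SE 0.22).

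The secreted members Lcn2, Serpina3n and Slpi showed the widest differences. Cp, also an acute-phase protein, differed by less than Vim, Nes and Cd44 by the probe that stands for it (2.19). By its separate probe (3.29) Cp differed by more than these 3. Lcn2 encodes lipocalin-2, which binds bacterial siderophores and is released by reactive astrocytes and by neutrophils. Its level was -6.16 and -1.96 in Sham, the lower value not above background, against 3.45, 3.71 and 1.85 in TBI. It was 3.18, 3.14 and 3.05 in TBI+Imipramine, 3.49, 3.12 and 3.49 in TBI+Prozac, and 3.62, 3.13 and 4.77 in TBI+Zoloft. The injured arrays lay far above both Sham arrays, which were themselves 4.19 log2 units apart. The log2 difference between TBI and Sham was 7.06 (SE 0.92, 134-fold, limma adjusted p = 0.000592). It was 4.97 without Sham replicate 1 and 9.16 without Sham replicate 2, so the size rests on which Sham animal is used, while the call did not (adjusted p = 0.00290 and 8.33e-05).

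Serpina3n encodes a secreted serine protease inhibitor of the alpha-1-antichymotrypsin family. Its level was -4.95 and -2.69 in Sham, 1.47, 4.28 and 0.23 in TBI, 4.06, 1.76 and 1.13 in TBI+Imipramine, 1.91, 0.85 and 1.27 in TBI+Prozac, and 1.41, 1.96 and 3.15 in TBI+Zoloft. The 3 TBI arrays spread over 4.06 log2 units, more than separates any drug group from TBI. TBI exceeded Sham by 5.82 on the log2 scale (SE 1.11, 56.4-fold, limma adjusted p = 0.00488), and by 4.69 without Sham replicate 1 (adjusted p = 0.0617).

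Slpi encodes secretory leukocyte protease inhibitor, which blocks neutrophil elastase. Its level was -7.21 and -7.47 in Sham, both not above background, and -1.42, -2.33 and -2.24 in TBI. It was -0.45, -0.58 and -1.51 in TBI+Imipramine, -2.27, -2.77 and -1.70 in TBI+Prozac, and -1.73, -2.56 and -0.40 in TBI+Zoloft. All 12 injured arrays were above background and neither Sham array was. TBI was at least 20.6-fold higher than Sham, taking the lowest probe above background on each Sham array as the limit (limma adjusted p = 0.000147 for the measured log2 difference of 5.35). With normexp background correction, which raises the values of dim spots, the measured log2 difference was 2.49 against 4.36 for this bound, so the bound holds under the scanner's own background correction and not under normexp. The same bound was 45.7-fold for TBI+Imipramine, 17.3-fold for TBI+Prozac and 27.8-fold for TBI+Zoloft, where normexp gave log2 differences of 3.57, 2.26 and 2.94.

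Cp encodes ceruloplasmin, a copper-carrying ferroxidase that astrocytes also hold on their surface. Its level was -2.97 and -2.50 in Sham, -0.55, -0.39 and -0.69 in TBI, -0.20, 0.25 and -0.48 in TBI+Imipramine, -0.32, -0.72 and -0.23 in TBI+Prozac, and 0.13, -0.19 and 0.22 in TBI+Zoloft. The 12 injured arrays spanned 0.97 log2 units, with every Zoloft array above every TBI array, as for 8.58% of probes. TBI exceeded Sham by 2.19 (SE 0.23, 4.56-fold, limma adjusted p = 0.000199), and a separate Cp probe with more spread gave 3.29 (SE 0.50).

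The receptors and membrane proteins followed the same direction. Cd44 encodes the receptor for hyaluronan and osteopontin. Its level was -2.46 and -2.10 in Sham, 0.15, 0.78 and 0.56 in TBI, 1.09, 0.95 and 0.56 in TBI+Imipramine, 0.50, -0.05 and 0.68 in TBI+Prozac, and 0.33, 0.46 and 1.22 in TBI+Zoloft. The injured groups overlapped each other throughout and none overlapped Sham. TBI exceeded Sham by 2.77 (SE 0.30, 6.84-fold, limma adjusted p = 0.000204). The 3 further Cd44 probes were above background on 2, 0 and 0 of 14 arrays and were not tested.

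Steap4 encodes a membrane metalloreductase that reduces iron and copper. Its level was -4.64 and -4.48 in Sham, -2.30, -2.31 and -3.80 in TBI, -2.50, -1.98 and -2.86 in TBI+Imipramine, -2.66, -2.91 and -2.37 in TBI+Prozac, and -1.77, -1.76 and -0.77 in TBI+Zoloft. TBI replicate 3 lay nearest to Sham, and every Zoloft array lay above every TBI array, as for 8.58% of probes. A further Steap4 probe was above background on 2 of 14 arrays and was not tested. By the tested probe TBI exceeded Sham by 1.76 (SE 0.44, 3.38-fold, limma adjusted p = 0.0183), the smallest difference of the 9. The call was lost when either Sham array (adjusted p = 0.104 without replicate 1, 0.0822 without replicate 2) or TBI replicate 1 or 2 (0.0516 and 0.0640) was left out.

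Osmr encodes the oncostatin M receptor, which pairs with gp130. It was not above background on any Sham, TBI or TBI+Prozac array, and was above background on TBI+Imipramine replicate 1 at -5.89 and TBI+Zoloft replicate 3 at -5.28. The remaining 10 injured arrays measured -8.00 to -6.35, and Sham measured -8.35 and -8.23. No fold was taken for Osmr, since most of its values were not above background.

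**Figure D2:**
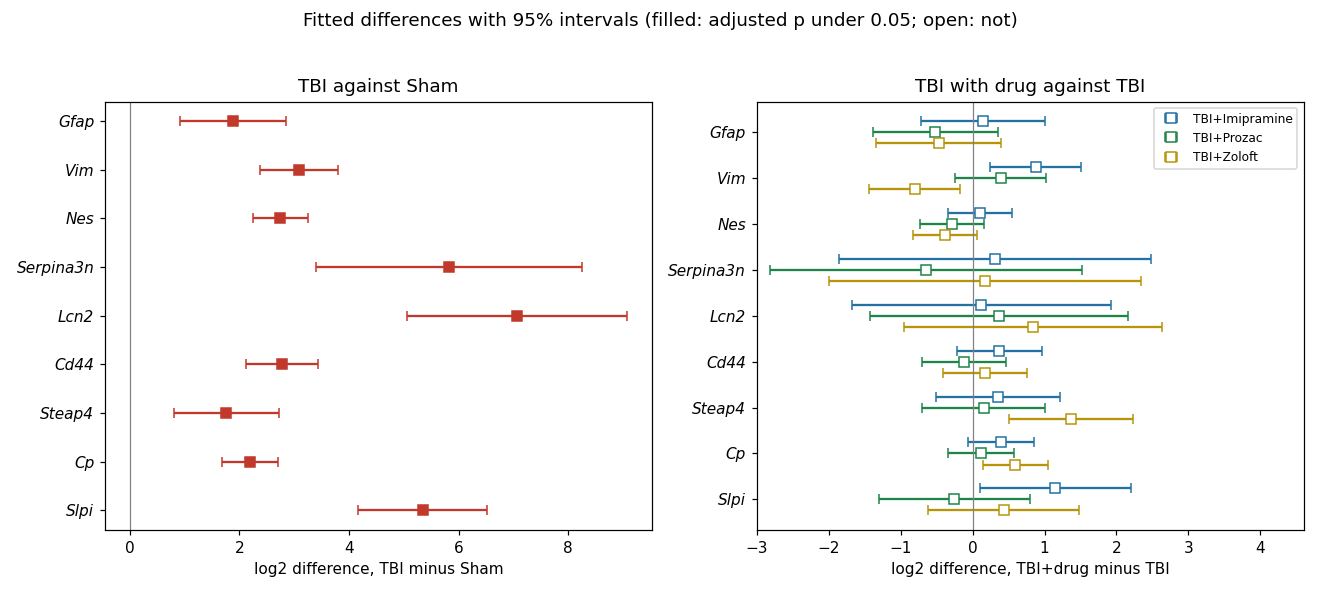
Fitted log2 difference of each tested member between TBI and Sham (left) and between each drug group and TBI (right), with 95% intervals; filled squares have an adjusted p under 0.05. The 9 intervals on the left lie above 0, from Steap4 (1.76) and Gfap (1.88) to Lcn2 (7.06), and no difference on the right was called.

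The Sham animals were not alike in these genes. Sham replicate 2 exceeded replicate 1 in 8 of the 9 tested members, by a median of 0.52 log2 units, whereas among 17292 tested probes with a value on both arrays 50.3% were higher in replicate 2 and the median difference was 0.00211. The exception was Slpi, not above background on either Sham array. Ranked by how far replicate 2 exceeded replicate 1, Lcn2 stood at 7 among these probes (4.19), Serpina3n at 35 (2.25) and Vim at 271 (1.17). For Lcn2 the replicate 1 value was not above background. Among the injured animals the members also differed in how steady they were. The SD within groups, pooled over the 4 injured groups, was 1.39 log2 units for Serpina3n, larger than in all but 0.0849% of the 14129 probes above background on every array. It was 0.58 for Steap4, 0.56 for Gfap, 0.37 for Cd44, 0.30 for Vim, 0.26 for Cp and 0.25 for Nes, beside a median of 0.20 over these probes.

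Across the 14 arrays the 7 members that were above background throughout moved largely together. Pearson's r between a member and the mean of the other 6, each scaled to unit variance, was 0.97 for Nes and Cd44, 0.96 for Cp, 0.91 for Serpina3n, 0.86 for Vim, 0.76 for Steap4 and 0.71 for Gfap. These values are a description, because the arrays fall into Sham and injured animals and the gap between the 2 sets carries most of the correlation. The 5 other genes closest to the mean of the 7 members over the 14 arrays were Pdpn (podoplanin, r = 0.987), Tubb6 (0.983), Timp1 (0.983), Anxa2 (0.981) and Il13ra1 (0.981). Pdpn rested at a level of -0.10 ± 0.50 (SD, n = 2) in Sham and 2.48 ± 0.19 (SD, n = 3) in TBI.

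In each drug group the tested members lay above Sham. Against Sham, TBI+Imipramine had 9 of 9 tested members called higher (19.8% of all tested probes were called higher). TBI+Prozac had 8 of 9 (11.7%) and TBI+Zoloft 8 of 9 (4.16%). Without Sham replicate 1 the counts were 8, 6 and 7. Gfap was the member not called in both, at log2 differences of 1.36 (SE 0.45, limma adjusted p = 0.0604) for TBI+Prozac and 1.41 (SE 0.45, adjusted p = 0.0846) for TBI+Zoloft. These comparisons share the Sham arrays with each other and with TBI against Sham, so they are not independent of one another. The median log2 difference of the 9 members was 2.77 in TBI, 3.15 in TBI+Imipramine, 2.65 in TBI+Prozac and 2.95 in TBI+Zoloft.

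Set against TBI, no tested member was called for any drug. Among all tested probes 2.85% were called for TBI+Imipramine, 0.00577% for TBI+Prozac and 1.38% for TBI+Zoloft. At an unadjusted p under 0.05 the counts were 2 of 9 for TBI+Imipramine, 0 of 9 for TBI+Prozac and 3 of 9 for TBI+Zoloft. Of all 17322 tested probes, 3417, 1742 and 2635 were under the same threshold, in the same order. Under this scaling the middle of the whole distribution lay at a log2 difference of 0.20 for TBI+Imipramine and 0.15 for TBI+Prozac against TBI, and at -0.02 for both when the 75th percentile of all probes was used instead. The median of the 9 members was 0.35 for TBI+Imipramine, -0.12 for TBI+Prozac and 0.18 for TBI+Zoloft. The intervals were wide for some members: for Serpina3n that of TBI+Imipramine ran from -1.85 to 2.49 around a difference of 0.32. For Nes, with the smallest SD within groups of the 7 members above background throughout, the interval ran from -0.34 to 0.55 for TBI+Imipramine, from -0.74 to 0.16 for TBI+Prozac and from -0.83 to 0.06 for TBI+Zoloft. The separate Nes probe differed by -0.63 in TBI+Zoloft (-1.06 to -0.20, limma adjusted p = 0.139), an interval that leaves out 0 without passing the threshold after adjustment. For this probe each Zoloft array lay below the 3 TBI arrays, as for 6.77% of probes.

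The members with an unadjusted p under 0.05 for a drug were Vim, Steap4, Slpi and Cp, and Nes by its separate probe. Vim differed from TBI by 0.87 on the log2 scale in TBI+Imipramine (95% interval 0.24 to 1.51, limma adjusted p = 0.131), by 0.39 in TBI+Prozac (-0.24 to 1.02, adjusted p = 0.679) and by -0.80 in TBI+Zoloft (-1.43 to -0.17, adjusted p = 0.200). Each TBI+Imipramine and TBI+Prozac array lay above the 3 TBI arrays, as for 25.2% and 14.9% of probes, and each TBI+Zoloft array lay below them, as for 6.77%. Steap4 was 1.37 higher in TBI+Zoloft than in TBI (0.51 to 2.22, 2.58-fold, adjusted p = 0.112) with no overlap of arrays, as for 8.58% of probes. Slpi was 1.15 higher in TBI+Imipramine (0.10 to 2.20, adjusted p = 0.218) with overlapping arrays, and Cp was 0.59 higher in TBI+Zoloft (0.14 to 1.05, adjusted p = 0.186). The separate Cp probe gave 0.23 for TBI+Zoloft (SE 0.45, adjusted p = 0.866). The 3 TBI arrays shared a slide with TBI+Prozac replicate 1 alone and the other 8 drug arrays shared another. On the shared slide that Prozac array differed from the TBI mean by 0.45 for Vim, 0.14 for Steap4, -0.27 for Slpi and 0.22 for Cp.

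Among the 3 drugs, 1 of the 9 tested members differed. By limma's F test over the drug groups Vim had an adjusted p of 0.0253, and 3.18% of all tested probes were called. Vim was 1.68 higher on the log2 scale in TBI+Imipramine than in TBI+Zoloft (95% interval 1.04 to 2.31, 3.19-fold, adjusted p = 0.0152). It was 1.19 higher in TBI+Prozac than in TBI+Zoloft (0.56 to 1.83, 2.29-fold, adjusted p = 0.0452). Between TBI+Imipramine and TBI+Prozac the Vim difference was 0.48 (-0.15 to 1.12, adjusted p = 0.812). Each pair was adjusted over the 17322 probes, and 3 pairs were compared for each of the 9 members. The F test for Vim gave an adjusted p of 0.0491 with slide as a block, 0.0808 within the slide of 8 drug arrays, 0.0579 after quantile normalization and 0.130 without TBI+Zoloft replicate 2, so the call depended on such settings. Over the alternatives the Vim difference from TBI ran from 0.65 to 1.15 in TBI+Imipramine, from 0.22 to 0.53 in TBI+Prozac and from -0.90 to -0.71 in TBI+Zoloft.

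The other members gave no call between drugs. Steap4 was higher in TBI+Zoloft than in TBI+Prozac by 1.21 log2 units (TBI+Prozac minus TBI+Zoloft -1.21, 95% interval -2.07 to -0.36, limma adjusted p = 0.104) and than in TBI+Imipramine by 1.01 (TBI+Imipramine minus TBI+Zoloft -1.01, -1.87 to -0.15, adjusted p = 0.142). Slpi was 1.40 higher in TBI+Imipramine than in TBI+Prozac (0.35 to 2.45, adjusted p = 0.720). For Gfap the 3 pairs gave differences of 0.66 (TBI+Imipramine minus TBI+Prozac, -0.20 to 1.53), 0.61 (TBI+Imipramine minus TBI+Zoloft, -0.25 to 1.48) and -0.05 (TBI+Prozac minus TBI+Zoloft, -0.92 to 0.82).

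**Figure D3:**
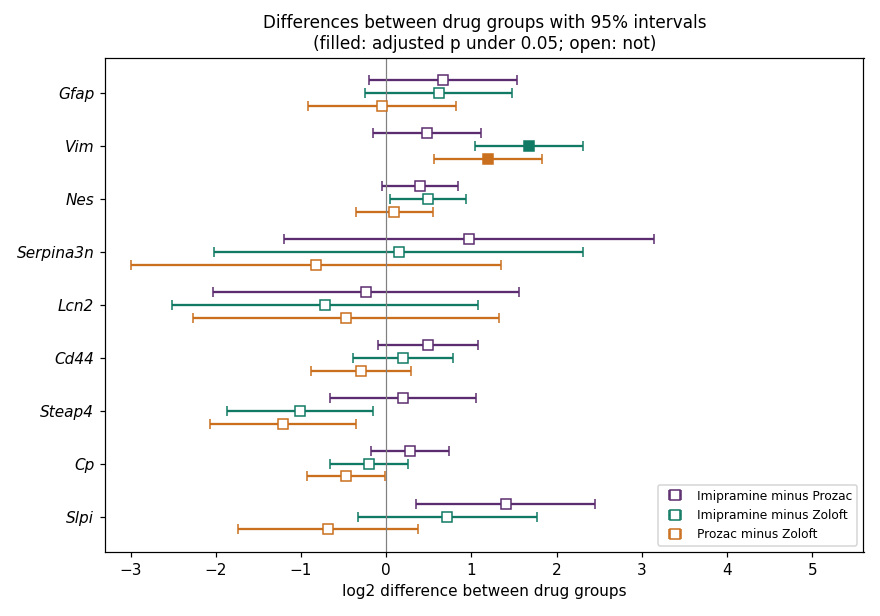
Log2 difference between each pair of drug groups for the 9 tested members, with 95% intervals; filled squares have an adjusted p under 0.05. Vim is the member with filled squares, at 1.68 for imipramine minus Zoloft and 1.19 for Prozac minus Zoloft, and Steap4 lies on the other side of 0 in the same pairs.

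Genes around the members were described from lists. Their counts in TBI against Sham stand beside the 8.3% of all tested probes called higher and the 8.32% called lower. Of 30 other transcripts of reactive astrocytes, 21 were tested and 15 were called higher and 0 lower in TBI against Sham, with a median log2 difference of 2.21. Among the 15, S1pr3, Sphk1 and Tnc were not above background in Sham and passed the filter only through injured arrays. S1pr3 was above background on 1 of 3 TBI arrays and at least 1.02-fold higher in TBI. This bound and those of the list genes below rest on the scanner's own background correction, as for Slpi. The largest were Timp1 (an inhibitor of metalloproteinases, 5.04, SE 0.38, 33.0-fold), Hspb1 (a small heat shock protein, 4.80, SE 0.54, 27.8-fold), Aspg (an asparaginase, 3.72, SE 0.48, 13.2-fold) and Cd14 (a lipopolysaccharide co-receptor, 3.49, SE 0.50, 11.2-fold). The summed signal of the 21 was 6.99 and 8.04 times the 75th percentile in Sham and 28.01 to 63.2 times in the injured arrays. By limma 0 genes of this list were called for any drug against TBI, and 1, 0 and 1 had an unadjusted p under 0.05 for TBI+Imipramine, TBI+Prozac and TBI+Zoloft.

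Of 24 genes of OSMR, interleukin-6 family and STAT3 signalling, 16 were tested and 4 were called higher, with a median of 0.39. Il1b (interleukin-1 beta) was not above background in Sham and at least 4.03-fold higher in TBI. Tgfb1 (a growth factor of glial scarring) rose by 1.14 (SE 0.22), Il6st (the gp130 chain shared by these receptors) by 0.78 (SE 0.22) and Jak2 (a kinase bound to it) by 0.74 (SE 0.22). Stat3 itself differed by 0.81 (SE 0.27, limma adjusted p = 0.0617) and Socs3, its feedback inhibitor, by 1.55 (SE 0.69, adjusted p = 0.149), and neither was called. The ligands Osm, Lif and Il6 were not above background on any of the 14 arrays.

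Genes of resting astrocyte function did not follow the members. Of 15 listed, among them the water channel Aqp4, the glutamate transporters Slc1a2 and Slc1a3 and the glutamine synthetase Glul, 13 were tested and 0 were called by limma in either direction (3 at an unadjusted p under 0.05), with a median log2 difference of -0.43 in TBI against Sham. Of all 17322 tested probes, 5335 had an unadjusted p under 0.05 in this comparison. Aqp4 differed by -0.07 (SE 0.22, limma adjusted p = 0.871), Gja1, the gap junction connexin 43, by -0.63 (SE 0.21, adjusted p = 0.0658) and Aldh1l1, a folate enzyme used to mark astrocytes, by -0.68 (SE 0.24, adjusted p = 0.0778). The summed signal of the 13 was 97.0 and 108 times the 75th percentile in Sham and 59.5 to 102 in the injured arrays, which overlapped. In whole tissue, fewer cells of a type and less RNA per cell cannot be told apart.

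Of 14 filament genes and partners of CD44 or LCN2, 11 were tested, 4 were called higher and 1 lower. Spp1 (osteopontin, a CD44 ligand) rose by 5.38 (SE 1.04), though it was above background on 1 of 2 Sham arrays, as was Mmp9 (a metalloproteinase that can bind LCN2), which rose by 2.00 (SE 0.63). Des (desmin) rose by 1.34 (SE 0.39) and Lmna (the nuclear lamin A/C) by 0.78 (SE 0.21). Slc22a17, a receptor for LCN2, fell by 0.49 (SE 0.14, limma adjusted p = 0.0337).

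**Figure D4:**
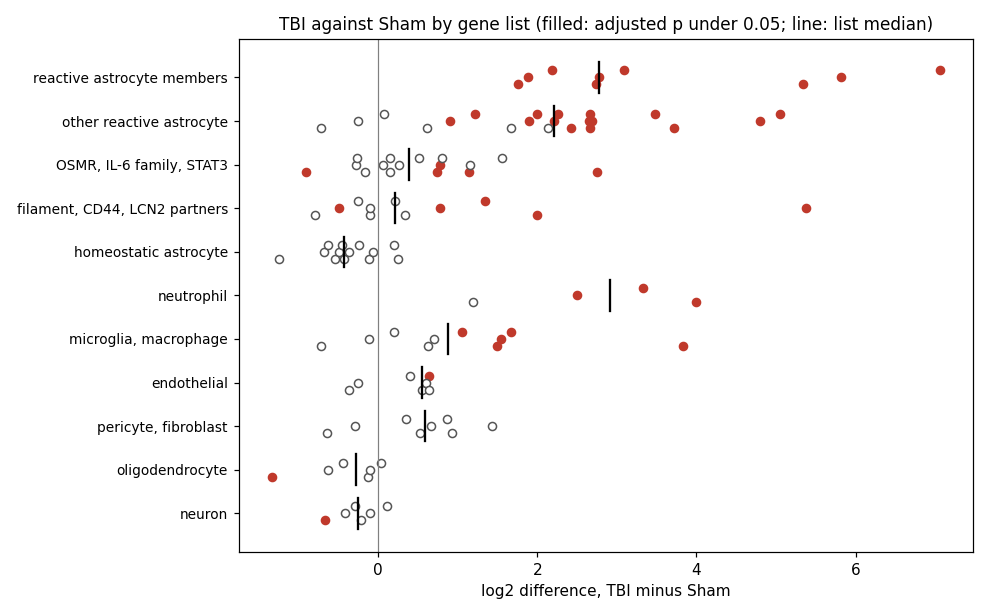
Log2 difference between TBI and Sham (horizontal axis) of the tested genes of each list; filled points have an adjusted p under 0.05 and the line is the list median. The members (median 2.77) and the other reactive astrocyte transcripts (2.21) lie to the right of 0, and the homeostatic astrocyte genes (-0.43) lie around and left of it.

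Markers of other cells moved with the injury as well. Of 10 neutrophil markers 4 were tested and 3 were called higher in TBI, S100a9 at 16.0-fold, S100a8 at 10.1-fold (above background on 1 of 2 Sham arrays) and Fcnb, which was at least 1.94-fold higher. Their summed signal was 0.113 and 0.132 times the 75th percentile in Sham, 0.50 to 2.78 in TBI, 1.59 to 2.93 in TBI+Imipramine, 0.549 to 1.31 in TBI+Prozac and 1.37 to 2.36 in TBI+Zoloft, so the injured arrays lay above Sham as they did for Lcn2 and Slpi. The granule genes Elane, Ltf and Mmp8 were not above background on any array. Among the TBI arrays, replicate 3 was lowest and replicate 2 highest in this sum, as in Lcn2 and Serpina3n, whereas for Slpi replicate 2 was the lowest (-2.33) and replicate 1 the highest (-1.42). In TBI+Prozac replicate 2 was lowest and replicate 1 highest in the sum, Lcn2 and Serpina3n. Slpi was also lowest on replicate 2 there, but highest on replicate 3 (-1.70). In TBI+Imipramine the sum was highest on replicate 2, but Lcn2, Serpina3n and Slpi were highest on replicate 1. In TBI+Zoloft replicate 3 was highest in each, Slpi included. Replicate 1 was lowest there in the sum and Serpina3n, and replicate 2 in Lcn2 and Slpi. The part of neutrophils in the Lcn2 and Slpi levels was not tested.

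Of 10 microglia and macrophage markers, 10 were tested and 5 were called higher in TBI. Msr1, a scavenger receptor not above background in Sham, was at least 4.15-fold higher, Cd68 differed by 1.67 (SE 0.45), Ptprc by 1.55 (SE 0.39), Lyz2 by 1.49 (SE 0.42) and Itgam by 1.05 (SE 0.28). The summed signal was 4.39 and 5.09 times the 75th percentile in Sham, 7.86 to 8.97 in TBI, 9.61 to 14.7 in TBI+Imipramine, 7.44 to 13.4 in TBI+Prozac and 5.77 to 8.21 in TBI+Zoloft. TBI+Imipramine held the highest array here and the highest group means of Vim and Cd44. For Cd44 the other groups did not keep this order. TBI+Zoloft, with the lowest array of the injured groups here, held the highest Cd44 array (1.22) and a Cd44 mean of 0.67. TBI+Prozac, with a sum of up to 13.4, had the lowest Cd44 mean of the injured groups (0.38). Msr1 was the one list gene called for a drug against TBI, 2.05 higher in TBI+Imipramine (SE 0.27, limma adjusted p = 0.00695), where 2.85% of all tested probes were called. TBI+Imipramine shared no slide with TBI, and with slide as a fixed block 2 probes were called instead of 494. Against TBI 6, 1 and 2 of the 10 markers had an unadjusted p under 0.05 for TBI+Imipramine, TBI+Prozac and TBI+Zoloft. Of all 17322 tested probes 3417, 1742 and 2635 did. The part of these cells in the Vim and Cd44 levels was not tested.

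Of the remaining lists, 1 of 7 tested endothelial genes was called higher in TBI (Cldn5, by 0.63, SE 0.15), 0 of 8 pericyte and fibroblast genes, 0 of 4 red blood cell genes and 0 of 3 progenitor genes were called by limma (0, 0 and 1 at an unadjusted p under 0.05), and Mobp (of 6 oligodendrocyte genes, by 1.33, SE 0.38) and Syt1 (of 6 neuronal genes, by 0.67, SE 0.19) fell. Choroid plexus and ependymal genes, of which 4 of 9 were tested and 0 called by limma (0 at an unadjusted p under 0.05), had a summed signal of 0.730 and 29.5 in Sham and from 0.468 to 106 in the injured arrays. This sum differed widely between arrays within every group, and whether the amount of choroid plexus tissue differed was not tested. Within Sham, Cp was higher on the array with the higher sum (-2.50 at 29.5, -2.97 at 0.730), and in TBI+Imipramine the arrays with sums of 101 and 106 had Cp at -0.20 and 0.25, against -0.48 at a sum of 2.16. In TBI the array with the highest sum (29.0) had the lowest Cp (-0.69), and in TBI+Zoloft the array with the highest sum (102) did so too (-0.19). In TBI+Prozac the array with the highest sum (88.2) lay between the others in Cp (-0.32). The part of choroid plexus in the Cp level was not tested.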

How the data were processed

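Gene expression was measured on 14 1-colour Agilent arrays. The authors scanned them and deposited Feature Extraction (version 11.5.1.1) output, whose processed signal is a background-corrected intensity per spot. They also deposited a table of values relative to the 75th percentile (deposited unit: ratio), used here as an alternative. Here spots without outlier flags were averaged per probe, divided by the array's 75th percentile over probes above background (on more than 0.5 of their spots) and turned to log2 (14676 to 18196 of 30367 probes were above background per array). Precision is limited by the number of arrays. RefSeq GRCr8 named 18643 probes by accession, the array's own names being older. Tests used limma 3.58.1 in R 4.3.3 on 17322 probes, with Benjamini-Hochberg adjustment, and were tested on simulated data first. Normexp used the median signal, since the deposited files used here hold no mean signal. Named list genes are up to 4 past the threshold with the largest TBI against Sham difference (others, such as Stat3, Socs3, Aqp4, Gja1, Aldh1l1 and Lyz2, were named after their values were seen). The members and lists were chosen with earlier results of these data known. The result of a further gene of the OSMR, interleukin-6 and STAT3 list is not reported here. The miRNA arrays of the same animals were not used here.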

Additional observations from a re-analysis of the deposited data

How the results depend on the processing

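The alternatives were scaling to all probes, quantile normalization, normexp background correction, no filter, a filter on all 14 arrays, spots with outlier flags kept, the authors' table, the methods' t-test, a replicate block, slide as a block and leaving out each array, where a lone Sham array was assumed to vary like the other groups. No call of a member reversed. Leaving out 1 array gave 6 to 9 called members for TBI against Sham, 8 to 9 for TBI+Imipramine, 6 to 8 for TBI+Prozac and 7 to 8 for TBI+Zoloft against Sham, 0 for each drug against TBI, and 0 to 1 among the drugs. The lowest counts against Sham came without Sham replicate 1. With the methods' t-test 8, 9, 9 and 8 members passed at the methods' unadjusted threshold of p and fold against Sham (TBI, then TBI+Imipramine, TBI+Prozac and TBI+Zoloft), and 0, 3, 0 and 0 after Benjamini-Hochberg. Of all tested probes 3031, 5703, 4139 and 2280 passed unadjusted in the same order, and 0, 1091, 1 and 0 after adjustment. Against TBI the t-test passed 1 member for TBI+Imipramine, 0 for TBI+Prozac and 2 for TBI+Zoloft unadjusted, and 0 for each after adjustment. Of all tested probes it passed 2440, 1093 and 1407 unadjusted, and 27, 1 and 0 after adjustment. The count of 1 among the drugs, which is Vim, became 0 with the 75th percentile over all probes (adjusted p = 0.0644), quantile normalization (0.0579), no filter (0.0785), the authors' table (0.0663), within the slide of 8 drug arrays (0.0808), and without TBI+Imipramine replicate 1 (0.0762) or 2 (0.0822) or TBI+Zoloft replicate 2 (0.130) or 3 (0.0649). The cause was not tested. Gfap in TBI+Prozac against Sham passed with normexp (adjusted p = 0.0454), the filter on all arrays (0.0472) and slide as a random block (0.0447). With normexp the Slpi difference between TBI and Sham was 2.49 on the log2 scale instead of 5.35. Same-numbered arrays of different groups did not deviate together (r from -0.26 to 0.24, over 0.1 in 3 of 26 pairs), so the numbers do not pair the animals. A replicate block gave 9 members for TBI against Sham and 0 among the drugs (Vim adjusted p = 0.0588), and left the other counts as they were.

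With 2 Sham and 3 injured arrays per group, differences of members with a wide spread, Serpina3n and Lcn2 above all, were bounded loosely. The limma p-values set a difference against the spread within groups, estimated for each probe over all groups together and drawn toward that of all tested probes. Probes below background in Sham carry only a lower bound, which rests on the scanner's own background correction. Levels near background have little precision, which limits Osmr. Sham against injured groups cannot be told apart from slide and scan. TBI+Imipramine and TBI+Zoloft shared no slide with TBI, so for them drug and slide are separated only through TBI+Prozac replicate 1. With slide as a fixed block the probes called against TBI were 2 for TBI+Imipramine, 7 for TBI+Prozac and 1 for TBI+Zoloft. Without it they were 494, 1 and 239.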
